A study of Mus musculus with 7 samples.

Results

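The baseline transcriptome of the cardiac neural crest was described from 4 wild-type libraries of mouse embryos at stage E10.5. It comprised every gene whose mean over these 4 libraries was at least 1 FPKM (fragments scaled to transcript length and to the total of the library), which held for 11025 of 19144 gene symbols, or 57.6%. The cells had been sorted by their green fluorescent protein (GFP) from pharyngeal arches 3 to 6, and their RNA had an integrity number of at least 9.5. Per the labels, the embryos were Wnt1-Cre2; Chd7 +/+; mTmG. Wnt1-Cre2 is a recombinase transgene active in the dorsal neural tube and the neural crest that leaves it, and mTmG is a reporter that exchanges a red membrane protein for a green one in any cell that has had the recombinase, and in its descendants. The label therefore marked a lineage, not a state, and cells of the dorsal neural tube carry it as well as crest. The stated cross, of Wnt1-Cre2; Chd7 loxp/+ males with Chd7 loxp/loxp; mTmG/mTmG females, leaves no embryo without a floxed Chd7 allele. This conflicts with the Chd7 +/+ label, which was followed here. Under that cross the sorted cells, which have had the recombinase, would hold a floxed Chd7 allele open to deletion. The name wild type and the reading of the Chd7 level below therefore rest on the label. The labels give neither litter, nor date, nor the number of embryos per library. The series holds 3 further libraries, from embryos lacking Chd7 in the crest, and these were not used.

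Neural crest cells arise at the border of the neural plate, leave the neural tube by an epithelial to mesenchymal transition and migrate into the periphery. Those that pass through the caudal pharyngeal arches, the cardiac crest, are known for forming the smooth muscle of the arch arteries, the septum of the outflow tract of the heart and the parasympathetic neurons of the heart, along with glia and arch mesenchyme. Since FPKM allows for transcript length, levels were set side by side between genes. Such comparisons are less certain for very short RNAs and for near-identical genes. Between libraries, unscaled values carry an offset, taken as the median ratio to the 4-library geometric mean. It was 0.968, 0.939, 1.04 and 1.06 in wild type 1, 2, 3 and 4, over genes at 1 FPKM or more in all. Orders of libraries given below for single genes and sums are of unscaled values and include this offset. Below, 4 values in a row belong to wild type 1, 2, 3 and 4 in that order, and ± is the SD over those 4 libraries (n = 4). No test was made, since all 4 libraries belong to the same group. Counts of listed genes at 1 FPKM or more are to be read beside the 57.6% of all symbols that reached it. The deposited table holds no read counts, so the absolute depth behind a value is unknown. From the smallest steps between low values, the depth relative to wild type 1 was 1.29 in wild type 2, 0.995 in wild type 3 and 0.912 in wild type 4.

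All 4 marker genes of the sorted population were well above the threshold in every library. Sox10, a transcription factor of migrating crest and its glial and pigment lineages (chr15:79154908-79165240, GRCm38, minus strand), had 19.2, 18.3, 17.6 and 22.9 FPKM. Foxd3, a forkhead factor of early crest (chr4:99656299-99658622, plus strand), had 13.4, 13.1, 11.9 and 13.1 FPKM. Hand2, a basic helix-loop-helix factor of arch mesenchyme and autonomic neurons (chr8:57320983-57324633, plus strand), had 14.01, 13.2, 16.98 and 16.9 FPKM. The mesenchymal homeobox gene Prrx1 (chr1:163245119-163313710, minus strand) was the highest of the 4 in each library, with 32.9998, 30.1, 40.8 and 41.4 FPKM. Foxd3 varied least, with a coefficient of variation (CV) of 5.31%, against 12.2% for Sox10, 12.9% for Hand2 and 15.5% for Prrx1. By mean level, Prrx1 ranked 859, Sox10 1914, Hand2 2566 and Foxd3 3124 among the 19144 genes. The markers of the migratory and glial states and those of mesenchyme were thus measured side by side in every library. In bulk RNA a high level in few cells and a low level in many cannot be told apart, and this applies to every level that follows.

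Levels ran over 4 orders of magnitude, as the plot of level against rank shows. The median of the baseline genes was 6.92 FPKM, with quartiles at 3.22 and 14.3 FPKM. A mean of at least 10 FPKM was reached by 4025 genes, of at least 100 FPKM by 254 and of at least 1000 FPKM by 5. The baseline genes were at 1 FPKM or more in all 4 libraries for 10603 of 11025, and another 347 genes reached it in some library without reaching it in the mean. A further 485 symbols were listed at 0 in all 4 libraries.

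**Figure D1:**
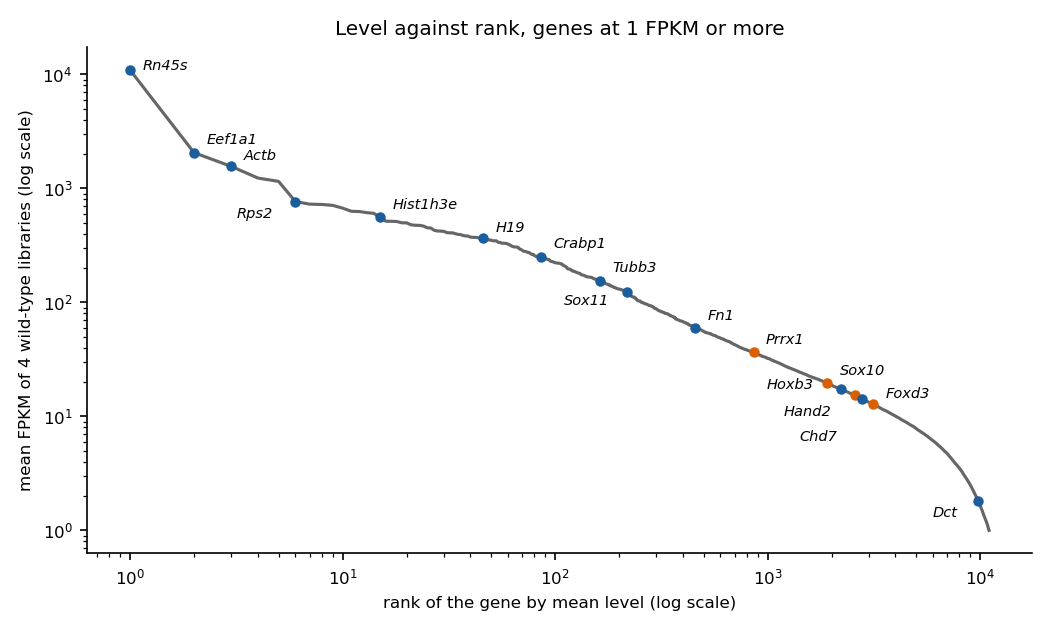
Mean FPKM of the 4 wild-type libraries (vertical, log scale) against the rank of the gene by that mean (horizontal, log scale) for the 11025 genes at 1 FPKM or more; orange points are the marker genes Prrx1, Sox10, Hand2 and Foxd3, and blue points are other named genes. The curve falls from Rn45s at 10905 FPKM through Eef1a1 at 2056 FPKM to the threshold, and the 4 markers lie between 12.9 and 36.3 FPKM.

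The most abundant transcripts were those of the ribosome, the cytoskeleton and the nucleus. Rn45s, the precursor of ribosomal RNA, which the library protocol aims to deplete, had 13916, 12247, 8851 and 8607 FPKM and took from 4.11% to 7.15% of the summed FPKM. Next came Eef1a1, which carries aminoacyl-tRNA to the ribosome, at 2056 ± 151 FPKM, and the cytoplasmic actins Actb at 1555 ± 103 and Actg1 at 1230.2 ± 37.2 FPKM. The short non-coding RNAs Rpph1, the RNA of ribonuclease P, at 1150.0 ± 255 FPKM and Rmrp, that of ribonuclease MRP, at 722 ± 147 FPKM varied more, with CVs of 22.2% and 20.4%. Both were lowest in wild type 2. With Rn45s set aside, the 100 highest genes held between 21.7% and 22.3% of the summed FPKM, and the 1000 highest between 54.4% and 55.6%. The concentration of the transcriptome was thus close to equal in the 4 libraries. Of 83 cytosolic ribosomal protein genes, 81 were at 1 FPKM or more, with a list median of 192 FPKM against 1.99 FPKM over all 19144 genes; Rps2 was the highest at 766 ± 59.4 FPKM.

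The cells expressed the whole cell cycle machinery that was listed. All 27 of 27 genes of DNA replication and S phase were at 1 FPKM or more, with a median of 23.9 FPKM, and so were 27 of 27 genes of G2 and mitosis, with a median of 23.4 FPKM, where 57.6% of all symbols were. Pcna, the sliding clamp of the replication fork, had 128, 133, 146 and 167 FPKM. Rrm2, a subunit of ribonucleotide reductase, averaged 83.3 ± 7.79 FPKM, and the helicase subunits Mcm2 to Mcm7 lay between 38.8 and 62.9 FPKM. In mitosis, Top2a, which disentangles sister chromatids, had 86.4, 78.3, 98.7 and 104 FPKM, and Ccnb1, the mitotic cyclin B1, had 52.3, 50.95, 58.6 and 67.5 FPKM. The chromatin protein Hmgb2 had 39.2, 40.9, 51.9 and 56.9 FPKM. All 4 of these genes were higher in wild type 3 and wild type 4 than in the other libraries. The median of the baseline genes was also higher there, at 6.73, 6.46, 7.16 and 7.23 FPKM.

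Clustered histone genes, whose transcripts accumulate in S phase, were among the highest of the transcriptome. In all, 64 of 66 with a row were at 1 FPKM or more, the median was 153 FPKM, and Hist1h3e was the highest with 643, 598, 487 and 503 FPKM. Hist1h2bg had 432, 383, 392 and 419 FPKM and Hist1h3b had 455, 371, 337 and 366 FPKM. Histone genes of a type are near-identical, so reads can be divided between copies in ways that the table does not show. The inhibitors of the cycle were fewer at high level. Cdkn1c, the imprinted inhibitor p57, had 77.8, 71.3, 71.5 and 73.3 FPKM and Trp53 had 37.6 FPKM, whereas Cdkn1a, a target of Trp53, averaged 0.733 FPKM and Cdkn2a 0.0445 FPKM.

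The promoters of these genes carry short motifs known for periodic transcription. Promoters of 300 bases from RefSeq (GRCm38.p6) were found for 8836 of the 11025 baseline genes, for 22 of the 27 G2 and mitosis genes and for 60 of the 66 histone genes. The cell cycle genes homology region, TTTGAA, which in G2 and mitosis genes is known as a site of the MuvB complexes, was present on either strand in 17 of the 22 G2 and mitosis promoters (77.3%), against 11.4% of all baseline promoters. TTTGAA was also in 27 of the 60 histone promoters (45%). CCAAT, searched on both strands, was in 20 of the 22 G2 and mitosis promoters (90.9%) and in 52 of the 60 histone promoters (86.7%), against 40.2% of all baseline promoters. A TATA box, TATAAA on the strand of the gene, was in 30 of the 60 histone promoters (50%), against 4.02% of all baseline promoters. The stretches around the start of a pair of genes from each list are shown to place these motifs, with TTTGAA (or its complement TTCAAA) in capitals for Top2a and Hmgb2 and TATAAA in capitals for both histone genes, whose stretches also hold TTTGAA or TTCAAA, left in lower case. Each is on the strand of its gene.
Top2a, chr11:99024170-99024309, minus strand: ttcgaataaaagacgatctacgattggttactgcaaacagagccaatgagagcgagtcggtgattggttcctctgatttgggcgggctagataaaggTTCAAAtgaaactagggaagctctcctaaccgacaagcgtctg
Hmgb2, chr8:57511723-57511862, plus strand: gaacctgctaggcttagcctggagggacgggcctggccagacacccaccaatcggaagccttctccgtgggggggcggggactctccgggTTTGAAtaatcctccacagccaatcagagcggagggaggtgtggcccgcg
Hist1h2bg (RefSeq H2bc8), chr13:23571280-23571419, plus strand: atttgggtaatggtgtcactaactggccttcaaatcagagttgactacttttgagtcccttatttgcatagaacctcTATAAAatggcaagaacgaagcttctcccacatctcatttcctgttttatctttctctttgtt
Hist1h3b (RefSeq H3c2), chr13:23752225-23752364, plus strand: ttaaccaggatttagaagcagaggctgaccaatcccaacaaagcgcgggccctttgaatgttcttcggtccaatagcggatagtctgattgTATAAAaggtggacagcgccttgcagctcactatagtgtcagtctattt
With the annotated start counted as 0, the motif began at -23 in Top2a, at -30 in Hmgb2, at -43 in Hist1h2bg and at -29 in Hist1h3b. A match is a run of letters and not a measured binding site.

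Transcription factors were mostly of moderate level. Of 430 transcription factor genes with a row, from 39 families, 269 were at 1 FPKM or more, 95 at 10 FPKM or more and 10 at 50 FPKM or more. Among all 19144 symbols, 11025 were at 1 FPKM or more and 4025 at 10 FPKM or more. The Id family, inhibitors of basic helix-loop-helix factors and targets of BMP signalling, supplied 3 of the 5 highest: Id3 had 128, 131, 122 and 142 FPKM, Id1 averaged 82.5 ± 4.12 and Id2 79.8 ± 4.79 FPKM. The SoxC factors Sox11, with 138, 121, 123 and 109.7 FPKM, and Sox4, with 94.5, 79.2, 78.99 and 76.01 FPKM, which act in neuronal and mesenchymal progenitors, stood beside them, and both were highest in wild type 1 and lowest in wild type 4. Tead2, a partner of the Hippo pathway's Yap, followed with 67.4 ± 5.59 FPKM. Hes1, a repressor induced by Notch, had 67.2, 69.8, 53.9 and 59.1 FPKM. The E proteins Tcf3 at 51.1 ± 1.95 and Tcf12 at 50.4 ± 3.91 FPKM, the dimer partners of Twist1 and Hand2, overlapped in level. The nuclear receptor Nr2f1 (COUP-TFI) had 49.8, 51.1, 50.7 and 49.4 FPKM and a CV of 1.54%, the smallest of the 10 highest factors.

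**Figure D2:**
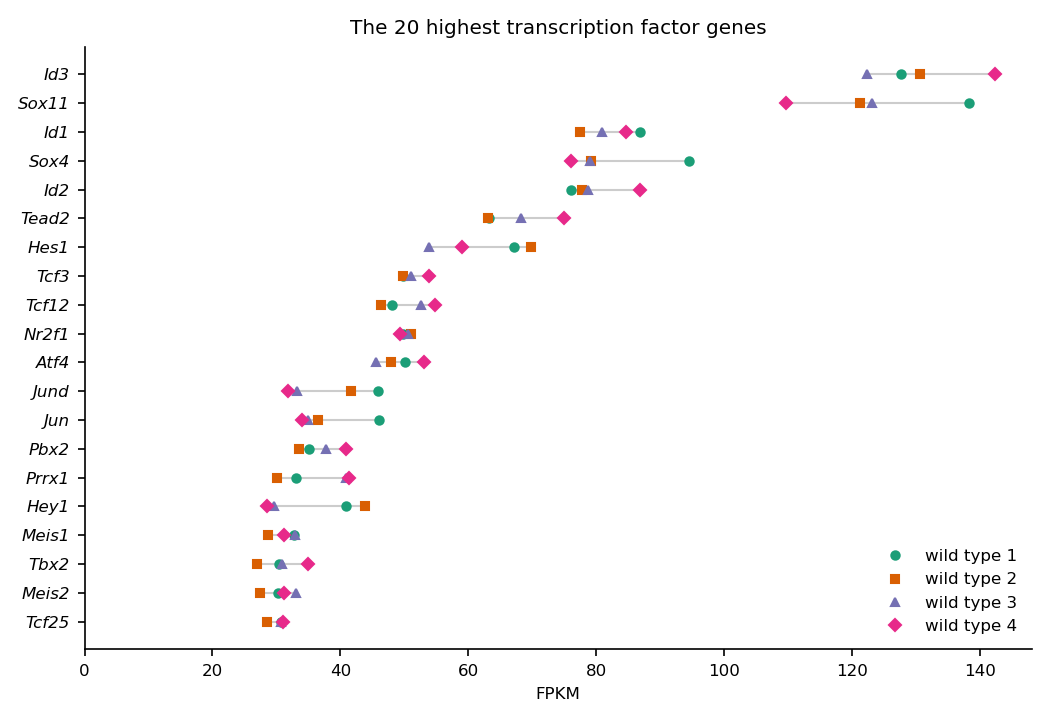
FPKM (horizontal) of the 20 highest transcription factor genes in each of the 4 wild-type libraries, with 1 symbol and colour per library and a grey line over their range. Id3 and Sox11 lie above 100 FPKM in all 4 libraries, and Hey1 is higher in wild type 1 and wild type 2 than in the others, at 40.9, 43.9, 29.7 and 28.6 FPKM.

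By family, the levels were uneven. The summed mean level was 302 FPKM in the Sox family, 301 FPKM in the Id family, 214 FPKM in the TALE homeobox family and 204 FPKM in the Fox family. Of 42 Fox genes 22 were at 1 FPKM or more, beside 57.6% of all symbols, with Foxc1 the highest at 20.3 ± 3.32 FPKM. Of 14 T-box genes 5 were, led by Tbx2 at 30.8 ± 3.24 FPKM. Of 8 Pax genes 2 were, led by Pax3 at 2.66 ± 1.06 FPKM, and of 3 Runx genes only Runx1 was, at 2.24 ± 0.457 FPKM. None of the 5 Pitx and Otx genes, factors of the forebrain, the first arch and left-right patterning, reached 1 FPKM.

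Genes that specify neural crest were broadly expressed, with 24 of 26 at 1 FPKM or more against 57.6% of all symbols and a median of 10.2 FPKM against 1.99 FPKM. After the Id genes, the highest were the neurotrophin receptor Ngfr with 26.5, 24.1, 24.2 and 23.2 FPKM, Twist1, a driver of mesenchymal transition, with 21.1, 18.6, 23.2 and 26.6 FPKM, and Mycn at 21.03 ± 2.179 FPKM. The ranges of these 3 genes overlapped one another. Ets1 had 18.7 ± 3.36 FPKM, the SoxE genes Sox9 and Sox8 had 15.2 ± 0.849 and 10.3 ± 1.10 FPKM, and Tfap2a and Tfap2b, which act from the neural plate border onwards, had 9.79 ± 0.569 and 11.8 ± 1.58 FPKM. Of the Snail factors that repress cadherins, Snai1 had 10.1 ± 2.11 FPKM and Snai2 3.76 ± 0.802 FPKM. Other specifiers averaged under 5 FPKM. Pax3 had 3.82, 3.29, 1.66 and 1.86 FPKM and was higher in wild type 1 and wild type 2 than in the others, Zic1 averaged 4.46 ± 2.91 FPKM, and Pax7 was under the threshold at 0.236 FPKM.

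Of Schwann cell precursor and glial genes, 20 of 25 were at 1 FPKM or more, with a median of 5.86 FPKM. Fabp7, a lipid carrier of early glia, had 27.1, 21.9, 18.7 and 14.98 FPKM and was highest in wild type 1. Erbb3, the neuregulin receptor of the Schwann lineage, had 16.5, 15.4, 15.4 and 18.4 FPKM, and Cdh6 averaged 15.5 ± 1.28 FPKM. Among genes of later Schwann cells, Egr2 averaged 1.05 ± 0.255 and Mbp 1.01 ± 0.170 FPKM, and S100b, Dhh and Mal were under 1 FPKM, from 0.106 to 0.270 FPKM. Pigment cell genes were fewer, with 5 of 12 at 1 FPKM or more and a median of 0.435 FPKM. Ednrb, shared with glia, had 17.98 ± 1.47 FPKM, Kit 5.01 ± 0.697 FPKM, Pmel 3.52 ± 0.846 FPKM, the master regulator Mitf 1.93 ± 0.281 FPKM and Dct 1.83 ± 0.165 FPKM. The other 7 were under the threshold, among them the pigment enzyme Tyr at 0.163 FPKM, and Oca2 was listed at 0 in all 4 libraries.

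**Figure D3:**
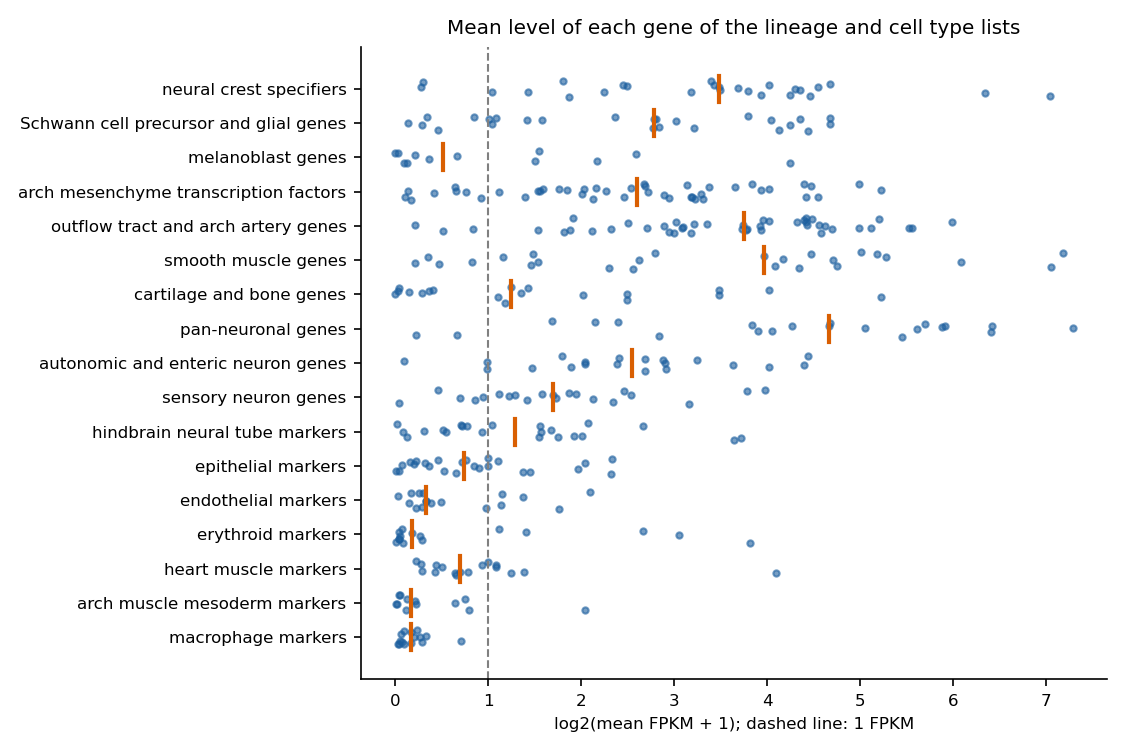
Mean level of each gene in 17 lineage and cell type lists, as log2(mean FPKM + 1) over the 4 wild-type libraries; each blue point is a gene, the orange bar is the median of the list and the dashed line is 1 FPKM. Pan-neuronal, smooth muscle, outflow tract and crest specifier genes have medians from 10.2 to 24.3 FPKM, and the medians of macrophage, erythroid, arch muscle and endothelial markers lie between 0.124 and 0.258 FPKM.

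Arch mesenchyme factors were present in number, 36 of 44, with a median of 5.08 FPKM. Prrx1 led them, and its range overlapped that of Tbx2, although Prrx1 was the higher in all 4 libraries. Prrx2, its paralog, had 17.3, 18.4, 23.05 and 25.8 FPKM, Foxc1 17.4, 17.7, 22.03 and 24.1 FPKM and Tbx3 18.9, 18.2, 20.02 and 23.1 FPKM. All 3 were highest in wild type 4. The Dlx genes, which pattern the arches from proximal to distal as linked pairs, were highest in the first of these pairs: Dlx2 had 13.3 ± 2.29 and Dlx1 8.34 ± 2.45 FPKM, Dlx5 3.36 ± 1.04 and Dlx6 1.91 ± 0.458 FPKM, and Dlx3 2.004 ± 0.343 and Dlx4 0.105 FPKM. Hand2 exceeded Hand1 (6.68 ± 1.73 FPKM) in each library. Barx1, a gene of arch mesenchyme, had 7.44, 8.05, 9.15 and 10.52 FPKM, and Six2 9.41, 9.12, 9.12 and 9.82 FPKM. Of factors known for the jaw and the face, Alx1 was at 2.59 ± 0.688, Alx4 at 1.94 ± 0.164 and Lhx8 at 2.41 ± 0.488 FPKM, Gsc at 0.891 FPKM, and Pitx1, a gene of the first arch, at 0.0795 FPKM.

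Hox genes, whose paralog groups are expressed in nested domains along the axis, were at 1 FPKM or more up to group 5 in the A and C clusters, 6 in the B cluster and 4 in the D cluster. In all, 14 of 33 Hox genes with a row (42.4%, against 57.6% of all symbols) were at that level, among them all 12 genes of groups 2 to 5. The summed level was 26.7 ± 1.37 FPKM in group 2, 36.2 ± 2.74 FPKM in group 3, 27.6 ± 1.55 FPKM in group 4 and 9.86 ± 1.89 FPKM in group 5. It was 2.02 FPKM in group 1 and 1.76 FPKM in group 6. Hoxb3 was the highest Hox gene in all 4 libraries, with 18.5, 16.1, 17.7 and 17.1 FPKM. Hoxa2, which sets the identity of the second arch, had 13.9, 13.5, 13.5 and 14.05 FPKM and a CV of 1.96%, and Hoxb2 had 13.3, 11.2, 14.4 and 12.7 FPKM. Hoxd3 had 12.3, 10.2, 12.6 and 10.96 FPKM, Hoxa3, known for its part in arches 3 and 4 and their glands, 7.43, 6.18, 7.89 and 7.97 FPKM, and Hoxb4 9.80, 10.1, 10.9 and 9.44 FPKM. The posterior genes of the B cluster were low and highest in wild type 2: Hoxb9 had 0.296, 2.41, 0.166 and 0.208 FPKM, and Hoxb6 had 1.22, 2.55, 1.18 and 0.716 FPKM. Groups 10, 11 and 13 each summed to at most 0.0503 FPKM in any library.

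**Figure D4:**
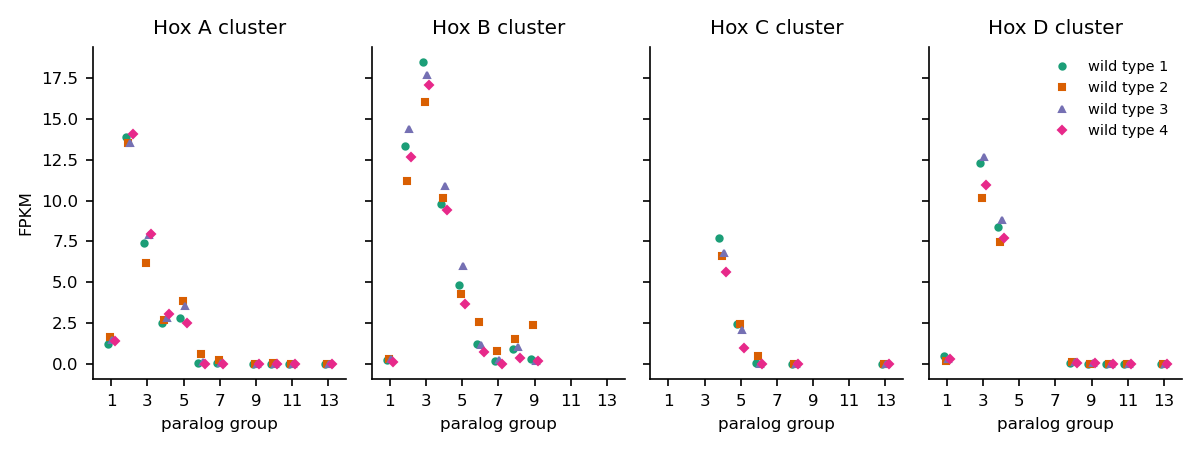
FPKM (vertical) of each Hox gene with a row, by cluster (panel) and paralog group (horizontal), with 1 symbol and colour per wild-type library. Levels are highest in groups 2 to 4, fall through group 5 and lie near 0 from group 10, and wild type 2 stands above the others in groups 6 to 9 of the B cluster.

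The TALE cofactors bind DNA with Hox proteins, and several of them exceeded the highest Hox gene. Of 11, 10 were at 1 FPKM or more, with Pbx2 at 36.8 ± 3.19, Meis1 at 31.4 ± 1.96 and Meis2 at 30.5 ± 2.34 FPKM, and ranges that overlapped between Meis1 and Meis2. Retinoic acid, a signal that sets anterior Hox domains, had 17 of 21 listed genes at 1 FPKM or more, with a median of 4.46 FPKM. Crabp1, which binds retinoic acid in the cytoplasm and is a known gene of migrating crest, ranked 86 of all genes with 256, 268, 234 and 245 FPKM, and Crabp2 had 108, 108, 115 and 118 FPKM. The receptors Rara, Rarg and Rarb had 11.04, 9.11 and 4.46 FPKM. Of the enzymes of synthesis, Rdh10, which makes retinal, averaged 5.72 ± 0.564 FPKM. Aldh1a2, which turns retinal into retinoic acid, had 1.20, 1.65, 0.950 and 0.510 FPKM, Aldh1a1 and Aldh1a3 averaged 0.430 and 0.223 FPKM, and the degrading enzyme Cyp26b1 had 2.181, 1.57, 1.02 and 1.24 FPKM. Aldh1a2 reached 1 FPKM only in wild type 1 and wild type 2.

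Genes with known roles in the outflow tract and the arch arteries were at 1 FPKM or more for 41 of 44, with a median of 12.5 FPKM. Tgfbr1, the type I receptor of TGF-beta, had 46.6, 45.1, 46.8 and 46.3 FPKM and a CV of 1.61%. The gap junction gene Gja1 had 40.4, 39.04, 47.9 and 52.2 FPKM, Bmpr1a 30.9, 30.2, 36.2 and 37.7 FPKM, and Notch3, the Notch receptor of vascular smooth muscle, 25.7, 24.8, 23.8 and 25.1 FPKM. Both PDGF receptors were at similar level, Pdgfrb with 21.1, 20.2, 25.4 and 27.9 FPKM and Pdgfra with 19.9, 18.8, 25.7 and 27.5 FPKM, and both were higher in wild type 3 and wild type 4 than in the others. Isl1 had 12.8 ± 1.29 and Tbx20 12.6 ± 1.97 FPKM, while the Gata factors were lower, with Gata6 at 4.31, 3.89, 4.85 and 5.65 FPKM, Gata4 at 2.57, 2.74, 3.49 and 4.54 FPKM and Gata5 at 0.792 FPKM. Chd7 itself (chr4:8690406-8867659, plus strand), which encodes a chromatin remodeller mutated in human CHARGE syndrome, had 13.97, 13.9, 14.6 and 14.3 FPKM and a CV of 2.38%. Within the CHD family it ranked below Chd4 (81.9 ± 4.22 FPKM), Chd3 (23.1 ± 2.17 FPKM), Chd8 (19.8 ± 1.20 FPKM) and Chd1 (14.9 ± 2.25 FPKM), and its range overlapped that of Chd1. Chd5, the member known from neurons and testis, averaged 0.0615 FPKM.

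Of smooth muscle genes, 21 of 25 were at 1 FPKM or more, with a median of 14.6 FPKM. The widely used cytoskeletal genes were high, with Tpm4 at 143 ± 23.2, Cnn3 at 132 ± 7.34 and Cnn2 at 66.9 ± 7.90 FPKM. Tagln had 19.7, 16.5, 22.8 and 25.5 FPKM and Acta2, smooth muscle actin, 14.1, 12.9, 17.2 and 19.7 FPKM, with the highest value in wild type 4 for both. Srf, the factor that drives these genes, had 21.1, 21.1, 17.04 and 18.1 FPKM. The contractile genes Myl9, Smtn and Cnn1 averaged 17.01 ± 1.17, 3.94 ± 0.462 and 1.89 ± 0.358 FPKM, and the 4 genes of the list under the threshold were Mylk, Lmod1, Myocd and Myh11 at 0.771, 0.387, 0.275 and 0.164 FPKM. Of cartilage and bone genes, 12 of 19 were at 1 FPKM or more (63.2%, near the 57.6% of all symbols). Their median was 1.37 FPKM, against 1.99 FPKM over all symbols. Col2a1, the main collagen of cartilage and of several embryonic tissues before it, had 39.01, 36.6, 34.6 and 35.4 FPKM, whereas Acan, Runx2, the regulator of bone, and Sp7 averaged 0.0307, 0.332 and 0.225 FPKM.

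Pan-neuronal genes were expressed at high level and differed between the libraries. Of pan-neuronal genes 19 of 21 were at 1 FPKM or more, and the median was 24.3 FPKM. Tubb3, neuronal tubulin, had 209, 174, 139 and 99.1 FPKM, the neurofilament gene Nefl 113, 83.9, 82.7 and 54.6 FPKM, Stmn2 77.6, 60.2, 55.9 and 37.999 FPKM and Dcx 43.7, 33.6, 32.2 and 19.6 FPKM. Each was highest in wild type 1 and lowest in wild type 4. Rbfox3 and Nefh, genes of mature neurons, averaged 0.591 and 0.167 FPKM.

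The summed level of autonomic genes varied less. Of the list, 17 of 20 were at 1 FPKM or more, with a median of 4.88 FPKM. The sum over all 20 was 129, 130.1, 133 and 127 FPKM. It includes Hand2 and Tbx3, which are also in the arch mesenchyme list. Of the 17 genes, 9 (52.9%) were lowest in wild type 4, against 17.4% of all baseline genes. Ret, the GDNF receptor of enteric and sympathetic precursors, had 7.38, 7.77, 8.9998 and 9.72 FPKM, and its co-receptor Gfra1 averaged 11.4 ± 1.37 FPKM. Ret was highest in wild type 4. Transmitter genes were present: Dbh, of noradrenaline synthesis, had 6.01, 8.59, 5.39 and 5.39 FPKM, Th, of catecholamine synthesis, 4.18, 5.46, 4.21 and 3.12 FPKM, and Slc18a3, which loads acetylcholine into vesicles, 7.99, 6.94, 6.81 and 4.28 FPKM. Dbh and Th were highest in wild type 2, and Slc18a3 in wild type 1.

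Sensory neuron genes were lower, with 16 of 21 at 1 FPKM or more and a median of 2.24 FPKM. Nhlh2 was the highest with 18.8, 16.5, 14.7 and 9.19 FPKM. Among those that define crest-derived and placodal sensory neurons, Pou4f1 had 2.42, 2.08, 0.702 and 0.572 FPKM, Neurog2 2.85 ± 1.74 FPKM and Neurog1 0.923 FPKM. Pou4f1 was above 2 FPKM in wild type 1 and wild type 2 and under 1 FPKM in the others.

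Of markers of the hindbrain neural tube, 12 of 22 were at 1 FPKM or more (54.5%, against 57.6% of all symbols), and the median was 1.49 FPKM against 1.99 FPKM over all symbols. Nkx6-1, a gene of ventral progenitors and their neurons, had 14.6, 12.8, 12.9 and 8.53 FPKM, Sox2 13.3, 13.1, 10.8 and 8.78 FPKM and Olig3, a gene of dorsal progenitors, 5.95, 4.37, 1.04 and 1.42 FPKM. Wnt1, which marks the roof of the neural tube, had 0.768, 1.18, 0.298 and 0.281 FPKM. Summed over all 22 genes, the list had 67.7, 62.9, 48.6 and 35.5 FPKM, in the same order of libraries as the 945, 772, 729 and 517 FPKM summed over all 21 pan-neuronal genes. The part of neural tube cells in the neuronal levels was not tested.

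In each of the 6 signalling pathways that follow, the highest receptor exceeded the highest ligand. Other systems did not all have this order. Igf2 averaged 153 FPKM against 36.9 FPKM for its receptor Igf2r, and Cxcl12 42.7 FPKM against 14.7 FPKM for Cxcr4. In the endothelin pathway, known for patterning the arches and for the pigment and enteric lineages, the receptors Ednrb and Ednra had 20.01, 17.98, 17.3 and 16.6 and 8.59, 7.19, 8.67 and 8.76 FPKM. The ligands Edn3 and Edn1 averaged 1.77 ± 0.194 and 0.512 FPKM, and Ece1, which activates them, 9.25 ± 0.944 FPKM. In the Hedgehog pathway Smo, the signal transducer, had 30.6, 31.7, 31.6 and 35.3 FPKM, the receptor Ptch1, itself a target of the pathway, 30.8, 31.3, 32.7 and 33.6 FPKM and the co-receptor Gas1 32.99, 31.5, 27.6 and 28.2 FPKM. The target Gli1 had 5.22, 5.39, 6.47 and 6.91 FPKM and the ligand Shh 6.62, 6.18, 7.13 and 4.35 FPKM.

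BMP and TGF-beta genes were at 1 FPKM or more for 33 of 40, led by the Id targets and receptors given above. Of the ligands Tgfb2 had 7.56 ± 0.866 FPKM, Bmp4 3.91, 3.05, 4.49 and 4.58 FPKM and Bmp7 2.57 ± 0.182 FPKM, and the antagonist Nog 1.75, 1.41, 0.701 and 0.802 FPKM. In the FGF pathway the feedback gene Dusp6 was the highest with 23.2, 20.9, 28.4 and 32.4 FPKM, followed by the receptor Fgfr1 with 20.5, 21.3, 21.2 and 22.2 FPKM. Of the Fgf genes, Fgf13, an intracellular family member, had 5.93 ± 0.370 FPKM. The ligand Fgf10 had 1.49 ± 0.216 FPKM, and the ligand Fgf8, known from arch epithelium, averaged 0.0881 FPKM.

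In the Wnt pathway 34 of 56 genes were at 1 FPKM or more (60.7%, near the 57.6% of all symbols). Beta-catenin (Ctnnb1) had 222, 217, 221 and 237 FPKM, and the receptor Fzd2 30.4 ± 2.06 FPKM. Wnt5a was the highest ligand with 15.2, 13.9, 17.3 and 18.2 FPKM, while the other Wnt genes listed were at or under 1.71 FPKM. The target Axin2 had 6.48, 6.45, 5.17 and 5.03 FPKM. Notch genes were at 1 FPKM or more for 20 of 22, and those of progenitors differed between the libraries. Hes5 had 40.9, 46.4, 17.4 and 9.71 FPKM, Notch1 25.3, 26.9, 18.2 and 17.9 FPKM, the ligand Dll1 11.4, 12.2, 7.07 and 5.67 FPKM and Hey1 40.9, 43.9, 29.7 and 28.6 FPKM. All 4 were higher in wild type 1 and wild type 2 than in the others, whereas Notch3 overlapped closely and had a CV of 3.29%.

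Guidance genes gave a broad set of receptors. Of the Eph system, which sorts crest streams, Efnb2 had 27.4 ± 0.791 and Ephb4 24.8 ± 2.27 FPKM. Of the semaphorin system, which guides cardiac crest into the outflow tract, the plexins Plxnb2 and Plxna1 had 29.9 ± 1.04 and 24.7 ± 2.91 FPKM, the neuropilins Nrp1 and Nrp2 14.5 ± 1.33 and 14.1 ± 1.80 FPKM, Plxna2 12.4 ± 0.698 FPKM and the ligand Sema3c 2.52 ± 0.383 FPKM. The netrin receptors Neo1 and Dcc had 18.8 ± 0.754 and 11.8, 9.04, 6.14 and 3.92 FPKM. Slit2 had 19.8, 17.7, 21.3 and 14.9997 FPKM and its receptor Robo1 18.6, 17.1, 17.6 and 16.4 FPKM, and Robo3, known from commissural neurons of the neural tube, 12.01, 6.72, 3.83 and 2.47 FPKM. Dcc and Robo3 were lowest in wild type 4 and highest in wild type 1.

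Among growth factors and their binding proteins, Igf2 had 129, 127, 167 and 188 FPKM and Igfbp4 139, 148, 144 and 167 FPKM. Their ranges overlapped, and Igf2 was the higher in wild type 3 and wild type 4 only. Next came Igfbp5 at 48.7 ± 6.01 FPKM. The chemokine Cxcl12 had 41.02, 37.9, 44.6 and 47.3 FPKM and its receptor Cxcr4 17.4, 16.4, 14.03 and 11.1 FPKM. Cxcl12 was highest and Cxcr4 lowest in wild type 4. Igf2 is imprinted, and the imprinted list held several of the highest genes of the transcriptome. Of imprinted genes 27 of 29 were at 1 FPKM or more, and the median was 16.9 FPKM. H19 had 297, 290.3, 414 and 458 FPKM, Mest 292, 288, 376 and 428 FPKM, Grb10 233, 229, 248 and 262 FPKM and Peg3 118, 111, 149 and 152 FPKM. All 4, like Igf2, were higher in wild type 3 and wild type 4. The median of all baseline genes was also higher there, at 6.73, 6.46, 7.16 and 7.23 FPKM. That rise was smaller in proportion than those of H19, Mest, Peg3 and Igf2. Meg3, by contrast, was lowest in wild type 4 and Cdkn1c highest in wild type 1. The imprinted list as a whole stayed within 0.02 of all baseline genes in its median log2 deviation in each library.

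Matrix genes of mesenchyme were at 1 FPKM or more for 40 of 43, with a median of 14.3 FPKM. Col3a1 led with 70.01, 66.8, 82.3 and 82.05 FPKM, ahead of the fibronectin gene Fn1, on which crest migrates, with 56.9, 55.2, 63.5 and 63.04 FPKM, Col1a2 at 46.99 ± 2.11 FPKM and versican (Vcan) with 34.1, 31.6, 37.9 and 35.95 FPKM. Elastin (Eln) and its crosslinking enzyme Lox, which mark later arteries, averaged 0.8286 and 0.667 FPKM. Of adhesion genes Itgb1, the common integrin beta subunit, had 60.4 ± 5.85 FPKM, N-cadherin (Cdh2) 26.7 ± 1.93 FPKM and cadherin 11 (Cdh11) 21.8 ± 2.50 FPKM, against 0.876 FPKM for the epithelial cadherin Cdh1.

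The mouse counterparts of the human DiGeorge deletion region, whose loss affects the same arches, were at 1 FPKM or more for 23 of 25 with a row, with a median of 6.89 FPKM. Ranbp1 was the highest at 49.98 ± 10.8 FPKM, the adaptor gene Crkl had 20.6 ± 1.34 FPKM and Tbx1, known from arch mesoderm, endoderm and ectoderm, 3.20, 2.98, 3.16 and 3.11 FPKM. Glycolysis genes had a median of 53.3 FPKM, with Eno1 at 407 ± 45.1 and Pkm at 394 ± 6.61 FPKM, and respiratory chain genes a median of 24.98 FPKM.

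In the lists of macrophage, arch muscle, endothelial, epithelial and erythroid markers, cell types that the recombinase does not label, most genes were under the threshold. This does not extend to the ventral neural tube, whose gene Nkx6-1, given above, averaged 12.2 FPKM. No macrophage marker of 15 reached 1 FPKM, and Ptprc (CD45), the common antigen of blood cells, averaged 0.0368 FPKM. Among arch muscle markers 1 of 12 was at 1 FPKM or more, Tbx1, and Myf5 and Myod1 averaged 0.0285 and 0.0387 FPKM. Among endothelial markers 5 of 17 were, with Plvap the highest at 2.22, 2.72, 3.63 and 4.55 FPKM, and Cdh5 and Erg averaged 0.410 and 0.128 FPKM. Among epithelial markers the count was 8 of 24, and Foxa2 had 4.22, 4.15, 4.68 and 3.07 FPKM and Krt18 3.13, 3.63, 4.58 and 4.60 FPKM, while Epcam averaged 0.999 FPKM. Among erythroid markers it was 5 of 15, and the embryonic globin Hbb-y had 13.4, 10.6, 17.7 and 10.47 FPKM and Hbb-bh1 7.86, 4.55, 10.6 and 6.20 FPKM, with the highest value in wild type 3, and Gata1 averaged 0.0111 FPKM.

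Among heart muscle markers 5 of 17 were at 1 FPKM or more, and Actc1 had 11.3, 12.2, 17.5 and 23.2 FPKM, Myl7 0.271, 1.05, 1.14 and 2.02 FPKM and Myl2 0, 0.449, 1.36 and 2.70 FPKM. Without wild type 4, Myl7 and Myl2 averaged under 1 FPKM and 3 heart markers remained, so that part of the list passed the threshold through that library. Summed over all 17 heart markers, whatever their level, the list had 15.6, 20.6, 30.97 and 42.6 FPKM. Of the 17, 14 were highest in wild type 4 and 13 lowest in wild type 1. Of all baseline genes, 49.7% were highest in wild type 4 and 27.1% lowest in wild type 1. The 17 include 12 that averaged under 1 FPKM, where values are near the floor. Nkx2-5 and Tnnt2 averaged 0.343 and 0.221 FPKM. The part of these other cells in any level was not tested. Xist, transcribed from the inactive X chromosome of females, had 17.8, 31.5, 23.7 and 17.6 FPKM, and the Y-linked Ddx3y had 4.81, 3.24, 4.90 and 6.06 FPKM. Both were present in all 4 libraries, and wild type 2 had the highest Xist and the lowest Ddx3y.

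Most genes were measured with little spread. The median CV of the 11025 genes was 9.79%, with quartiles at 6.37% and 14.5%. It was 14.7% between 1 and 2 FPKM and 8.29% between 10 and 50 FPKM. Of 6769 genes at 5 FPKM or more, 72 (1.06%) had a highest value at least 2-fold above the lowest. The smallest CVs were those of Wbp1l, with 14.2, 14.3, 14.3 and 14.3 FPKM, Atad1, with 23.4, 23.3, 23.4 and 23.6 FPKM, and Kdm5a, with 10.8, 10.9, 10.9 and 10.9 FPKM.

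The libraries were not equally alike. The median absolute difference of log2(FPKM + 1) was 0.08 between wild type 1 and wild type 2 and 0.08 between wild type 3 and wild type 4, and from 0.14 to 0.19 for the other pairs. Baseline genes that differed by at least 1 on this scale numbered 2 and 4 in the first pairs and 75 between wild type 1 and wild type 4. The labels name no batch that matches this, so batch and embryo cannot be told apart. Of the 100 genes at 5 FPKM or more with the widest range, 66 were highest in wild type 1 and 75 lowest in wild type 4, against 17.9% and 12.2% of all genes at that level. Of 16 pan-neuronal genes at 5 FPKM or more, 9 (56.3%) were among those 100, against 1.48% of all 6769 genes at that level.

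Genes outside the neuronal lists were among those with wide ranges. Hist1h2ap had 74.1, 78.8, 0.0354 and 0.124 FPKM, and as a copy of a near-identical histone family its reads are uncertain. The gene A230070E04Rik had 10.2, 11.7, 1.08 and 0.797 FPKM. Tmsb10, which binds actin monomers, had 14.1, 10.8, 37.5 and 36.5 FPKM, the G protein subunit gene Gng5 20.9, 18.9, 44.1 and 50.5 FPKM and the mitochondrial ribosome gene Mrpl52 3.64, 2.77, 10.1 and 10.6 FPKM. In these 5 genes wild type 1 and wild type 2 stood on the same side of wild type 3 and wild type 4. Afp, alpha-fetoprotein of yolk sac and liver, had 0.490, 10.8, 15.7 and 15.3 FPKM and was low in wild type 1 alone.

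Lists moved together between the libraries, as the plot of list deviations shows. Each deviation is the median over the list of log2(FPKM + 1) in a library minus the gene's 4-library mean, with the same median over all baseline genes subtracted. It was 0.37, 0.17, -0.01 and -0.58 for pan-neuronal genes and 0.30, 0.25, -0.12 and -0.56 for hindbrain markers. It was -0.11, -0.11, 0.08 and 0.15 for G2 and mitosis genes and -0.07, -0.11, 0.05 and 0.16 for smooth muscle genes. Cell cycle, smooth muscle and ribosomal protein genes were highest in wild type 4, in which pan-neuronal genes were lowest: 26 of 27 S phase genes, 24 of 27 G2 and mitosis genes, 19 of 21 smooth muscle genes and 72 of 81 ribosomal protein genes had their highest value there, against 49.7% of all baseline genes and 57.5% of those at 5 FPKM or more. Dissociation stress genes, the immediate early and heat shock genes that tissue handling can induce, summed to 235, 193, 184 and 186 FPKM over the whole list, with the highest sum in wild type 1. Crest specifiers lay between -0.08 and 0.05, and outflow tract genes between -0.02 and 0.03.

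**Figure D5:**
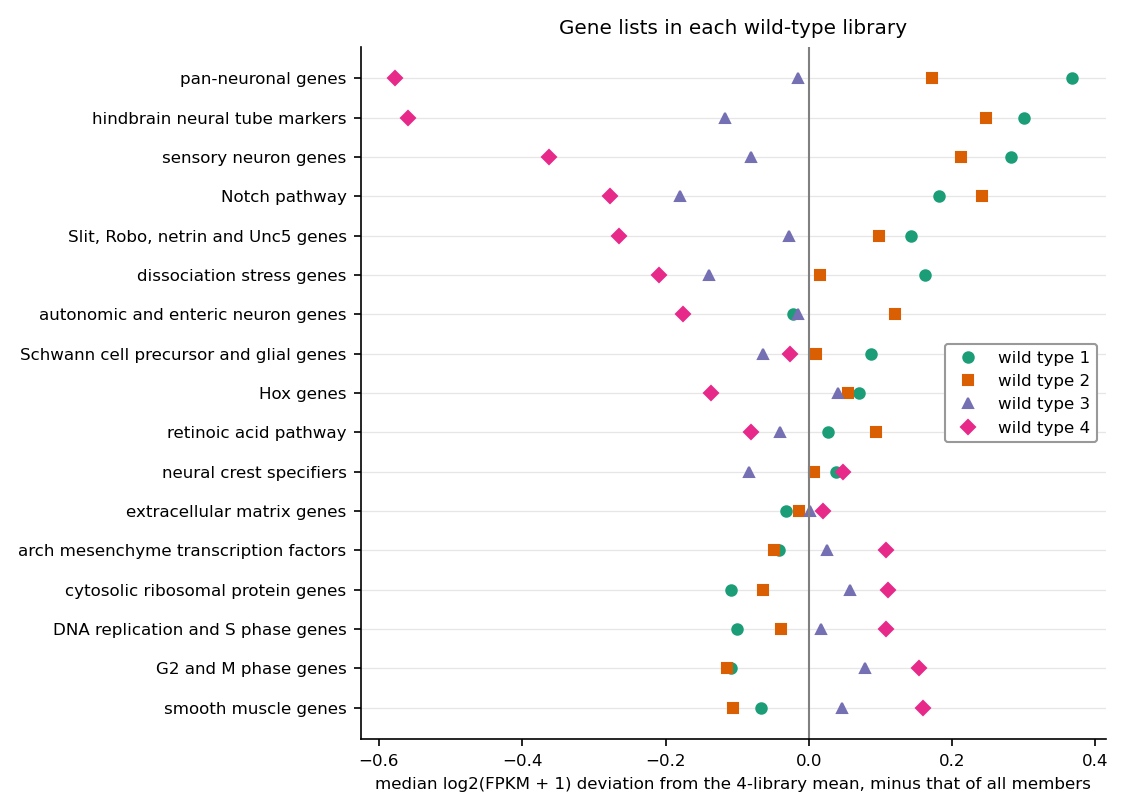
Deviation of each gene list in each wild-type library (horizontal): the median over the list of log2(FPKM + 1) minus the gene's 4-library mean, with the same median over all 11025 baseline genes ("all members") subtracted; 1 symbol and colour per library. Pan-neuronal genes lie at -0.58 in wild type 4 and at 0.37 in wild type 1, and extracellular matrix genes lie between -0.03 and 0.02 in the 4 libraries.

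Gene length moved with part of this spread. In the quintile of baseline genes with the shortest exon length, 184 to 2622 bases, the median deviation before that subtraction was -0.07 in wild type 1 and 0.11 in wild type 4. In the longest quintile it was -0.01 in wild type 1 and 0.04 in wild type 4. Across 10933 genes, which are not independent replicates, Spearman's rho between length and the difference of wild type 4 minus wild type 1 was -0.19. Relative depth, at 0.912 in wild type 4 and 1 in wild type 1, and the share of Rn45s, at 4.11% and 7.15%, differed between the same libraries. The part of length, depth and ribosomal RNA in the differences between libraries was not tested.

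The baseline genes were also described by features that the threshold did not use. Of the 10933 that matched a single gene of the GENCODE M21 annotation, 98.1% were protein coding. Among all 18776 matched symbols, 17052 were protein coding, and 62.9% of these reached 1 FPKM. Of 610 lincRNA genes with a row, 44 (7.21%) did. By chromosome the share of genes at 1 FPKM or more ran from 53.9% on chromosome 6 to 63.6% on chromosome 8 among the autosomes. It was 54.2% on the X, beside 57.6% of all symbols. In the promoters, the ratio of observed to expected CpG was higher in each successive quintile of the baseline genes by level. Its median was 0.722, 0.773, 0.812, 0.831 and 0.849 in the 5 quintiles, low to high, and the share of promoters with a ratio of at least 0.6 was 66.5% in the lowest quintile and 86.2% in the highest. TATAAA on the strand of the gene was in 3.22% to 3.51% of promoters in the lower 4 quintiles and in 6.62% in the highest. Clustered histone genes, with TATAAA in 50% of promoters and a median level of 153 FPKM, add to the highest quintile. The share without them was not counted.

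The threshold itself cut through a continuous distribution. Just above it lay Rhbdl1, Gm15694 and Lypd1, with means of 1.0001, 1.0008 and 1.0011 FPKM, and just below it Stc1, Epha2 and Myl3, at 0.9999, 0.9996 and 0.9995 FPKM. Their ranges over the libraries crossed 1 FPKM in all 6 cases. Nearest in level to the marker genes at 5 FPKM or more were Polr2g, Kdm5c and Fdft1 for Sox10, Smpd4, Gle1 and Slc25a13 for Foxd3, Rnf20, Trpm7 and Gtf3c4 for Hand2, and Taldo1, Psmc2 and Fads2 for Prrx1, by the absolute difference of mean FPKM over the 4 libraries.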

How the data were processed

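The deposited values are FPKM, in a single table with a column for each library. The submitters' processing notes list, with neither role nor order, the mm10 build, Partek, SAMtools, HISAT2, Trimmomatic 0.38 and bcl2fastq 2.18.0.12. Per the labels' protocols, libraries were strand-specific, ribosomal RNA was depleted, and fragmentation and priming were random. The use of strand in counting, the filters and the annotation were not given in the sources used here. As the authors' FPKM divides by the total of a library, an RNA that takes more reads lowers the values of all others, and genes that are near-identical or that overlap can share reads.

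Of 19169 rows, 25 had a date in place of a symbol and were left out. They held at most 0.161% of the summed FPKM of a wild-type library. The 4 wild-type columns were averaged without further scaling, and symbols averaging 1 FPKM or more were kept. Relative depth came from the most frequent ratio of values among genes under 0.5 FPKM. Spread was taken as CV and on log2(FPKM + 1), with a pseudocount of 1. The labels do not say that the libraries came from separate litters, so the SD may be partly technical. Positions, lengths and gene types came from matching symbols to GENCODE M21 (GRCm38), and promoters from RefSeq, of which 80.1% of the baseline genes had one. For a symbol with several promoters, the one nearest the GENCODE start was taken. Genes under 1 FPKM (75.4% matched) and S phase genes (77.8%) were not compared for motifs, because fewer than 80% had a promoter.

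The baseline set, 48 gene lists and the named genes were chosen with earlier results of these data known. Named genes were the markers, the 20 highest genes, the 4 highest of each list, every gene of short lists, lineage and marker genes at 1 FPKM or more, the 10 highest transcription factors, the 20 widest and 10 tightest genes at 5 FPKM or more, and those at the threshold or nearest the markers. Further ligands, receptors and low defining genes named in the text were chosen after their values were seen. Some genes that these rules name are not reported here. No test was made. The steps were checked on simulated data. Alternatives were other thresholds, another pseudocount, 3 rescalings and leaving out each library. Tables were made with pandas 2.3.3 and numpy 2.4.6 in Python 3.11.15, and figures with matplotlib 3.10.9.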

Additional observations from a re-analysis of the deposited data

Results flagged for a closer look

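Dixon's criterion for 4 samples is met by chance in about 1 of 20 groups of values that share no offset. By this criterion a wild-type library stood far from the other 3 in 9 of 434 named genes (2.07%). The same held for 1 of 47 gene lists. The values were unscaled and include the offset between libraries, and the criterion was not applied to scaled values. Ednra was low in wild type 2, at 7.19 FPKM against 8.59 to 8.76 FPKM in the others. Fos was high in wild type 1, at 28.1 FPKM against 15.4 to 16.8 FPKM, and the summed level of the dissociation stress genes, to which Fos belongs, was high in the same library, at 235 FPKM against 184 to 193 FPKM. Osr1 was high in wild type 1, at 2.64 FPKM against 1.25 to 1.36 FPKM, and Wfdc2 low there, at 1.08 FPKM against 1.75 to 1.78 FPKM. Lars2 was high in wild type 3, at 12.2 FPKM against 4.14 to 5.13 FPKM, and so was Neurod4, at 5.47 FPKM against 3.53 to 3.69 FPKM. Slc2a1 had 24.6 FPKM in wild type 2 against 22.59 to 22.65 FPKM. In wild type 4, Sox8 was high at 11.9 FPKM against 9.53 to 9.88 FPKM, and Meg3 low at 7.99 FPKM against 9.996 to 10.2 FPKM.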

How the results depend on the processing

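No paired analysis was possible because the description rests on a single group and made no comparison between groups. Of 528 values for the number of genes, the list counts, the abundant shares and the spread under other settings, 26 moved beyond their limits. The limit was a fixed fold change for a count and the SD over the 4 libraries for a share. For spread it was the SD over the fits that leave out 1 library. Lists whose genes lay nearly all far above 1 FPKM could hardly move, so the share that stayed says little on stability. With the threshold at 2 FPKM, 3 melanoblast, 7 cartilage and bone, 2 endothelial, 3 erythroid, 4 epithelial and 1 heart muscle genes stayed at or above it. At 0.5 FPKM, 1 macrophage, 14 epithelial, 4 arch muscle and 11 heart muscle markers did. Requiring 1 FPKM in every library left 3 endothelial markers and 1 heart muscle marker. Leaving out 1 library at a time gave 3 to 7 heart muscle markers, with 3 when wild type 4 was left out. The median range of log2(FPKM + 1), 0.26 as reported, was 0.21 after scaling to equal sums, 0.21 after scaling by median ratios, 0.21 after scaling without Rn45s, 0.30 with a pseudocount of 0.1 and 0.19 to 0.24 with 3 libraries. The median CV, 9.79% as reported, was 7.86%, 7.72% and 7.73% under the same 3 scalings, 8.66% at 5 FPKM or more and 8.47% to 10.54% with 3 libraries. The cause of these shifts was not tested. Of 497 named gene levels, 1 moved by more than its SD over the 4 libraries, that of Wbp1l under scaling without Rn45s. Leaving out 1 library cannot move a 4-library mean by more than that SD. These levels were therefore not put to a test by it. Restricting 47 list medians to genes at 1 FPKM or more moved 32 by more than their SD over the 4 libraries. Leaving out 1 library moved the list medians of macrophage markers (0.125 FPKM as reported, 0.0719 to 0.157) and BMP and TGF-beta genes (7.35 FPKM, 7.0974 to 7.0981). With no read counts, the depth behind levels near 1 FPKM is unknown.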
